A study of Mus musculus and Rattus norvegicus with 6 samples.

Results

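Described here are 10 stress and feedback genes of liver, in mice and rats with and without a leptin defect. They are the 3 GADD45 genes (Gadd45a, Gadd45b, Gadd45g), 4 Krüppel-like factors (Klf6, Klf9, Klf10, Klf15), the NF-kappaB inhibitors Tnfaip3 and Nfkbia, and Phlda1. Every probe set annotated to one of these symbols was taken, which gave 27 of 45037 probe sets on the mouse arrays and 16 of 31042 on the rat arrays. The genes were chosen by their saline genotype ratios, in that Gadd45a, Klf6 and Tnfaip3 were higher in both mutants. The saline genotype values are therefore a description, and nothing is supported with them.

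The study measured liver RNA of male animals aged 20 weeks, taken 6 h after an intraperitoneal injection of recombinant murine leptin (1 microg/mg as the design text writes it) or saline. The mice were Lepob/Lepob given leptin, Lepob/Lepob given saline and wild-type (WT) given saline, all on a C57/BL6J background. The rats were Lepmkyo/Lepmkyo given leptin, Lepmkyo/Lepmkyo given saline and WT given saline, all on an F344/NSlc background, and the WT animals of both species were littermates of the mutants. The mutations remove the adipose hormone leptin from the whole body, so the liver was not altered on its own. The rat labels conflict: titles and the genotype field read Lepmyo/Lepmkyo and the source field Lepob/Lepob, whereas descriptions and design text give Lepmkyo/Lepmkyo, the name used here. Each group was 1 array, and the labels do not say whether an array held RNA of 1 animal or of several. No spread between animals could be measured, no test was possible, and "higher" and "lower" compare the intensities of 2 arrays.

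GADD45 proteins are small acidic proteins without enzyme activity, made after DNA damage, cytokines and other stresses. They bind PCNA, the CDK1 kinase and the kinase MAP3K4, through which they act on the cell cycle and on p38 and JNK signalling. Krüppel-like factors bind GC-rich and CACCC DNA through zinc fingers at the C terminus, and in liver several of them follow feeding, glucocorticoids and the clock. Tnfaip3 (A20) edits ubiquitin chains and Nfkbia (IkappaB alpha) holds NF-kappaB in the cytoplasm. Both are themselves induced by NF-kappaB and limit its activity.

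The deposited values are linear intensities per probe set. The median intensity over all probe sets and arrays of a species served as a floor (82.7 for mouse, 97.0 for rat). Values under it were raised to it before a ratio was taken, and a fold against such a value is written "at least". Where a gene had several probe sets, the one with the highest mean stood for it, and a ratio of 2-fold or more was counted as a call. Between probe sets of the same gene, log2 ratios spread by an SD of 0.43 in the saline genotype comparison and 0.24 in the leptin comparison, in mice and in rats alike. That spread compares probe sets on the same arrays, and it does not measure the spread between animals. The mutated gene gave no check of genotype in liver, since Lep lay far under the floor on all arrays. Its intensity was 2.8, 3.2 and 4.0 in leptin mutant, saline mutant and WT mice, and 3.1, 6.0 and 4.0 in the same groups of rats. Hepatocyte markers bore out the tissue label, with 7 of 7 on the mouse arrays and 8 of 8 on the rat arrays over the floor in every group.

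**Figure D1:**
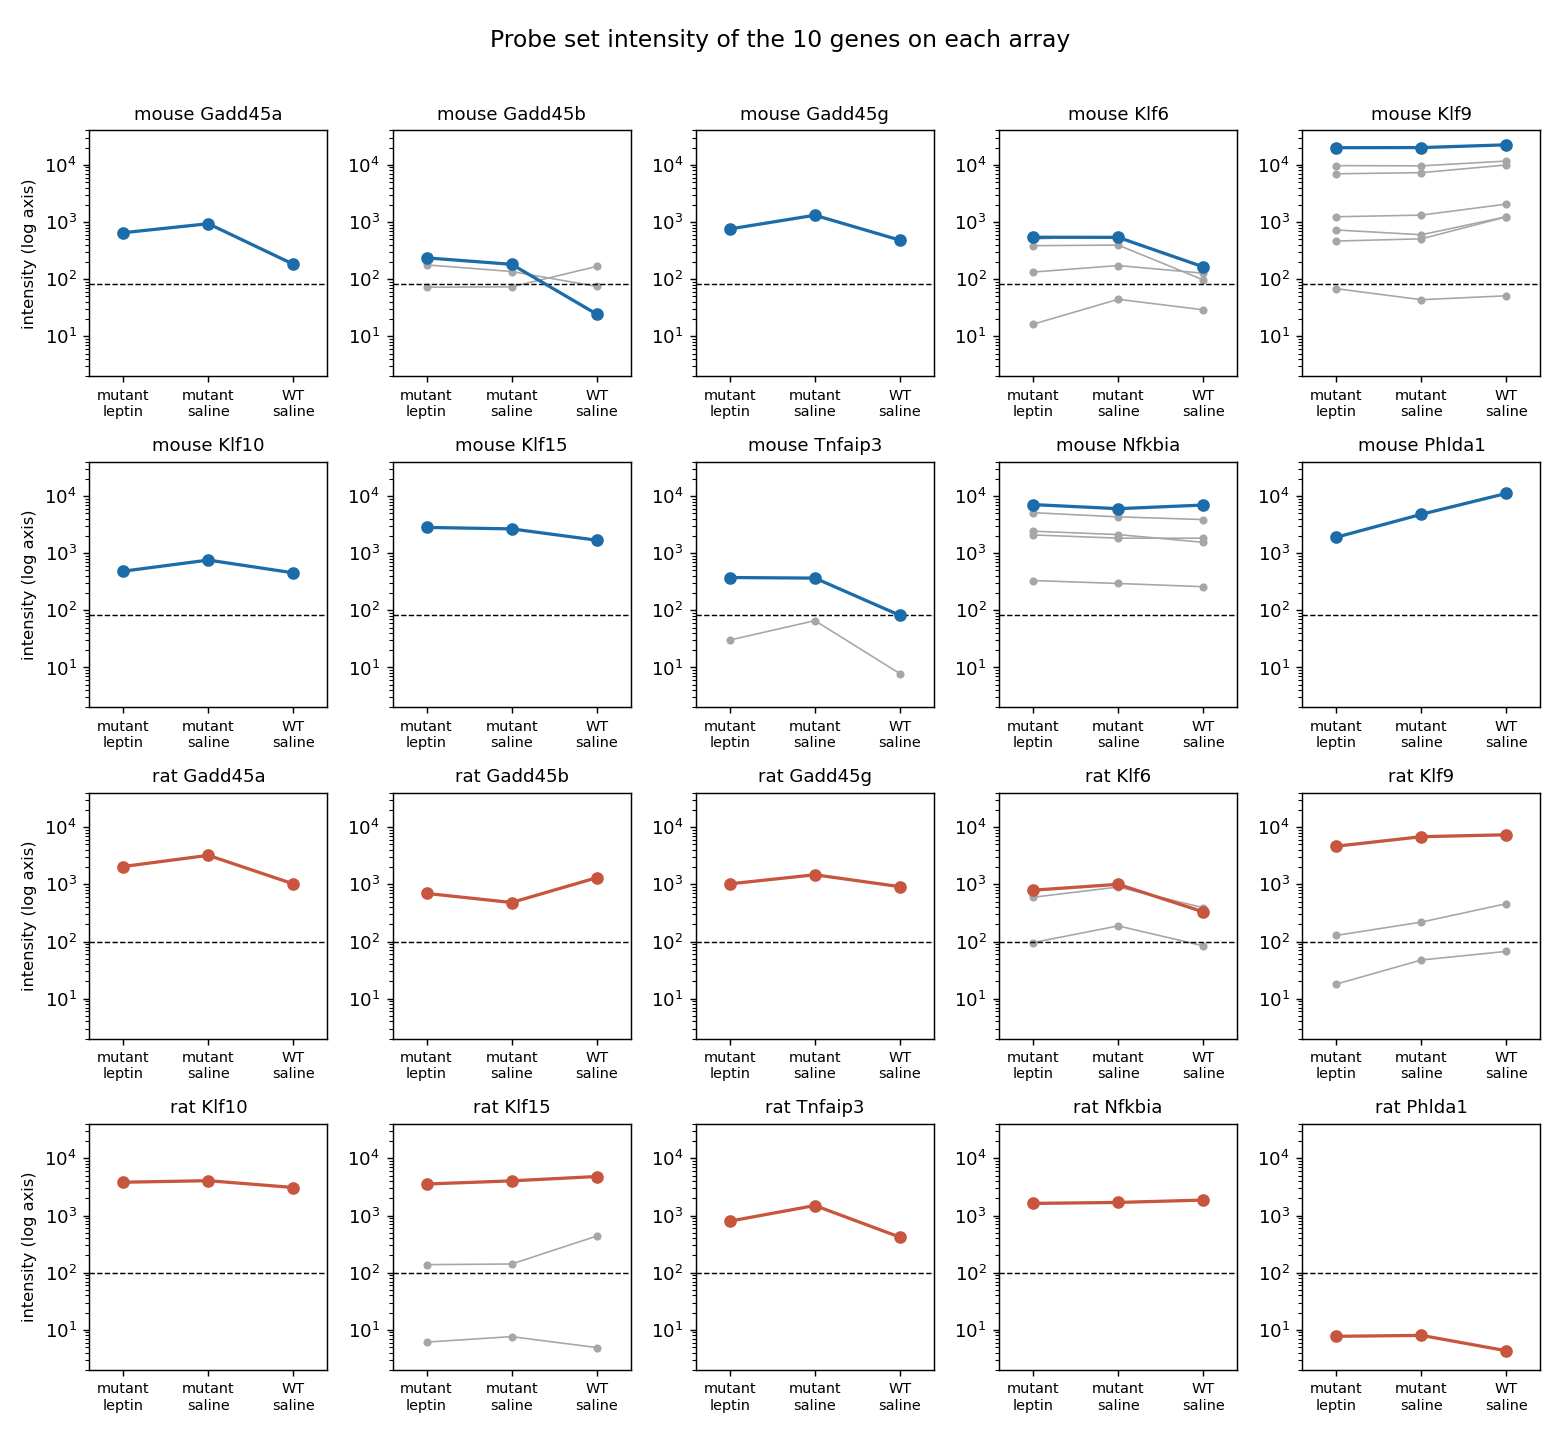
Intensity of every probe set of the 10 genes on the 3 arrays of each species (log axis, arbitrary units). Coloured points are the probe set of highest mean intensity, grey points the others, lines join the arrays of one probe set, and the dashed line is the floor (82.7 in mice, 97.0 in rats). The coloured points of Gadd45a, Klf6 and Tnfaip3 sit higher on both mutant arrays than on the WT array in each species, and Phlda1 lies at 8.0 or less on all rat arrays.

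In saline-injected Lepob/Lepob mice, 5 of the 10 genes were higher than in WT by 2-fold or more and 1 was lower by as much. Over all 11956 genes measured, 4.46% were that much higher and 3.71% that much lower. In saline-injected Lepmkyo/Lepmkyo rats, 3 of the 9 genes that reached the floor were called higher and 1 was called lower, against 2.99% and 1.45% of 9817 genes. The median log2 ratio of the members was 0.94 in mice and 0.40 in rats, beside -0.027 and 0.044 over all genes. Because the choice of genes used these ratios, nothing is read from these counts. Of 8304 genes measured in both species, 61 (0.735%) were called higher in both mutants, and 3 of them were members. Scaling bears on the mouse values: centring each array on its median moved the median of all genes by 0.24 on the log2 scale. Of the 2-fold calls in mice, 54.6% were higher as deposited, 65.3% after quantile normalization and 80.4% with centred arrays.

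**Figure D2:**
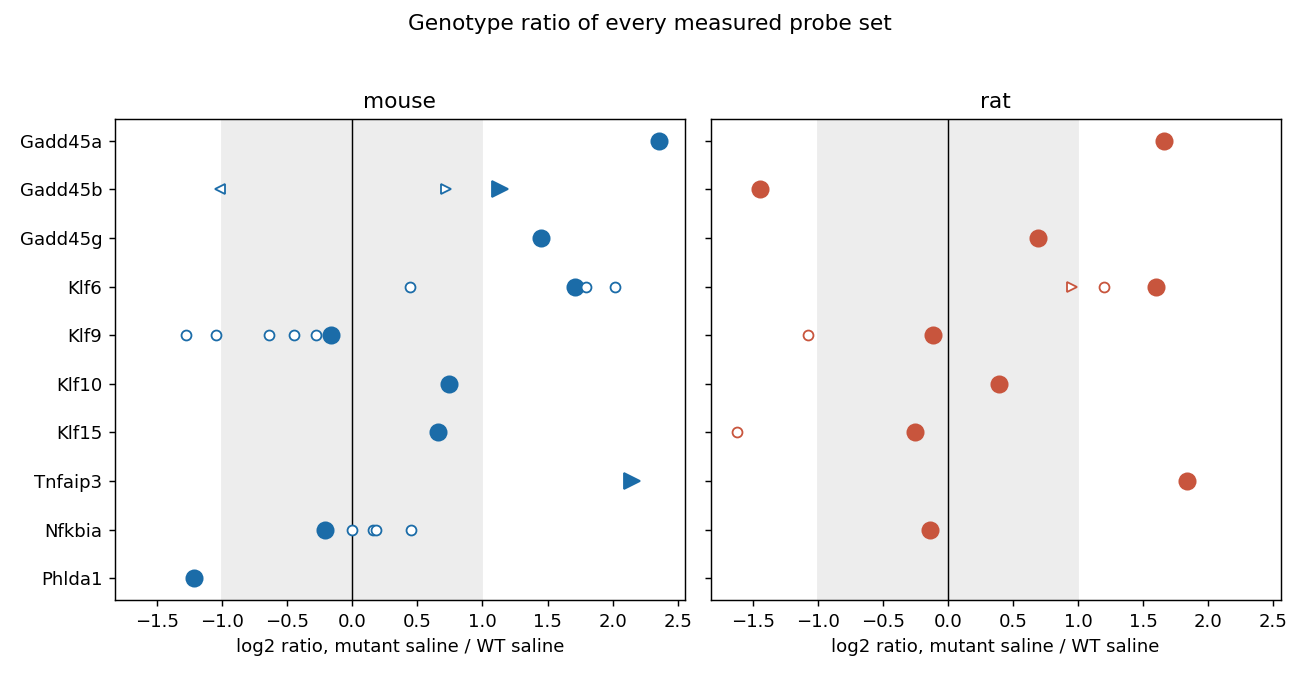
Log2 ratio of saline mutant over saline WT intensity for every probe set with at least 1 array over the floor, mouse left and rat right. Large filled symbols are the probe set that stands for the gene, open symbols the other probe sets, triangles bounds with 1 array under the floor, and the grey band marks less than 2-fold. Gadd45b lies to the right in mouse (1.14) and to the left in rat (-1.44), and the probe sets of Klf9 range from -0.16 to -1.28 in mouse.

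Among the GADD45 genes, Gadd45a and Gadd45g were higher in both mutants, whereas Gadd45b differed in direction between the species. Gadd45a, the p53-induced member of the family, had an intensity of 933.3 in saline Lepob/Lepob mice and 182.3 in WT mice, a 5.12-fold difference that ranked 62nd from the top of all genes. In rats it had 3220.1 in saline mutants and 1017.5 in WT, which is 3.16-fold higher and ranked 63rd. Gadd45a was thus among the genes of highest ratio in both species, from 1 probe set in each. Gadd45g, a cytokine-induced member, had 1313.8 in saline mutant mice against 481.1 in WT mice (2.73-fold higher). In rats Gadd45g had 1470.9 in saline mutants and 910.6 in WT, 1.62-fold higher and short of the 2-fold line.

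Gadd45b, which is induced by TGF-beta and NF-kappaB and protects regenerating liver cells from JNK-driven death in mice, had probe sets that disagreed in mice. On the probe set that stands for the gene it had 181.8 in saline mutants and 24.5 in WT, at least 2.20-fold higher. A second gave 136.1 against 74.7, at least 1.65-fold higher, and the third 73.3 against 166.9, at least 2.02-fold lower. The mouse direction of Gadd45b therefore depends on the probe set, and each of the 3 had at least 1 array under the floor. In rats the only probe set was well over the floor and had 481.2 in saline mutants and 1306.4 in WT, 2.71-fold lower.

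Klf6, an early-response factor known in rats from injured liver and activated stellate cells, was higher in both mutants on every probe set measured. In mice it had 538.6 in saline mutants and 164.2 in WT, 3.28-fold higher. Another pair of probe sets gave 3.47-fold and 4.06-fold. The remaining measured one gave 173.0 against 127.0, only 1.36-fold higher, and 1 more stayed under the floor on all arrays. In rats the 3 probe sets of Klf6 were 3.03-fold (1001.2 in saline mutants, 330.2 in WT), 2.30-fold and at least 1.93-fold higher. The direction was thus the same on 4 of 4 measured probe sets in mice and 3 of 3 in rats.

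Tnfaip3 was higher in both mutants and Nfkbia was not, although both genes restrain NF-kappaB. Tnfaip3 had 366.3 in saline Lepob/Lepob mice and 81.7, just under the floor, in WT mice, at least 4.43-fold higher. Its other mouse probe set was under the floor throughout, with 66.0 in saline mutants and 7.8 in WT, so the mouse value rests on 1 probe set. In rats Tnfaip3 had 1496.6 in saline mutants and 418.2 in WT, 3.58-fold higher and ranked 42nd of all genes. Nfkbia had 6005.5 in saline mutant mice and 6950.2 in WT mice, 1.16-fold lower. Its other 4 mouse probe sets ranged from 1.00-fold to 1.37-fold higher, and the sign of the first turned positive (0.04) when arrays were centred on their median. In rats Nfkbia had 1693.1 in saline mutants and 1863.8 in WT, 1.10-fold lower. No Nfkbia probe set of either species reached 2-fold.

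The promoters of the 3 genes that were higher in both mutants are shown beside that of Nfkbia, the NF-kappaB inhibitor that was not. Each runs from 250 bases before to 50 bases after an annotated mouse transcription start, 5′ to 3′ on the strand of the gene, from RefSeq on GRCm38.p6. Capitals mark the NF-kappaB consensus or the E-box CACGTG, the site that CLOCK and BMAL1 can bind, on either strand, and no marked sites overlap.
Gadd45a, chr6:67037358-67037657, minus strand: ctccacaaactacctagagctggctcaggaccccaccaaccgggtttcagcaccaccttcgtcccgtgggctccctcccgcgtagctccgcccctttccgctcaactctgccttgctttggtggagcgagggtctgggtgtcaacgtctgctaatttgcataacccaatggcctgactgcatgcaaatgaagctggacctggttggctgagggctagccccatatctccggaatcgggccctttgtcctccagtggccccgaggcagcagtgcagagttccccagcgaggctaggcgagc
Klf6, chr13:5861239-5861538, plus strand: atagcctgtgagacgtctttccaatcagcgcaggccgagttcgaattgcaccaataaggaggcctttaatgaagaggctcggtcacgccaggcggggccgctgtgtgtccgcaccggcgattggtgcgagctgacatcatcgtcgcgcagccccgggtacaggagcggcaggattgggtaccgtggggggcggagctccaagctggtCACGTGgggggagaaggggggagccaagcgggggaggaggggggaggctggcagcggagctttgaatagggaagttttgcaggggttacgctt
Tnfaip3, chr10:19015361-19015660, minus strand: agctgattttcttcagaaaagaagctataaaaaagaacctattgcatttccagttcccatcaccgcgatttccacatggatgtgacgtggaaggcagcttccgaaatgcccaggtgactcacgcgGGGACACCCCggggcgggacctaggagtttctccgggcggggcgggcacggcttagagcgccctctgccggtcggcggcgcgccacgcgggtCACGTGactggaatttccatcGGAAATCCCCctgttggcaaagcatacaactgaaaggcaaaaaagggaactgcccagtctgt
Nfkbia, chr12:55492598-55492897, minus strand: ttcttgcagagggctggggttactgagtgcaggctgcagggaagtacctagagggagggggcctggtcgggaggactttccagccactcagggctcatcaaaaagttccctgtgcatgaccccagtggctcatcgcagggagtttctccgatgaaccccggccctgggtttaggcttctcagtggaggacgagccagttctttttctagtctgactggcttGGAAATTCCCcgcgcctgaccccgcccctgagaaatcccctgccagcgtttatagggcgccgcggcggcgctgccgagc
Counting from 1 at the 5′ end, the consensus matches of Tnfaip3 begin at bases 126 and 239 and that of Nfkbia at base 222. An E-box begins at base 208 of the Klf6 window and at base 218 of the Tnfaip3 window. The Gadd45a window holds neither motif, so it has no capitals.

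Windows were found for 8 of the 10 genes, 9 windows in all, since Tnfaip3 has a second start. The NF-kappaB consensus was in 2 of the 9, against 4.51% of all 32851 mouse windows of that length. CACGTG was in 5 of the 9, those of Klf6, Klf15, Gadd45b, Gadd45g and Tnfaip3, against 7.15% of all windows. The Klf15 window held it 3 times. The GC box GGGCGG, to which Sp and Krüppel-like factors bind, was in 6 of the 9 and 35.7% of all. TATAAA was in 4 of 9 and 13.6%, and CCACCC in 1 of 9 and 31.5%. The AP-1-like pattern TGANTCA, with any base in the middle, was in 2 of 9 and 7.81%. The matches to that pattern were TGACTCA in the Tnfaip3 window and TGAATCA in the Klf9 window. The CRE TGACGTCA and the CArG box were in 0 of 9, against 1.79% and 1.63% of all windows. Both strands were searched, and a match is a run of letters and not evidence of binding.

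The other Krüppel-like factors differed less and not in one direction. Klf10, induced early by TGF-beta, had 757.3 in saline mutant mice and 452.3 in WT mice, 1.67-fold higher. In rats it had 4069.5 in saline mutants and 3092.2 in WT, 1.32-fold higher. Klf15, which drives amino acid breakdown and gluconeogenesis in fasted mouse liver, had 2660.0 in saline mutant mice and 1688.2 in WT mice, 1.58-fold higher. In rats its brightest probe set had 4041.7 in saline mutants and 4815.4 in WT, 1.19-fold lower. A second rat probe set of Klf15 had 141.8 against 436.8, 3.08-fold lower, so the size of the rat difference depends on the probe set. Neither Klf10 nor Klf15 reached 2-fold on the probe set that stands for it.

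Klf9, a glucocorticoid and thyroid hormone target, was lower in both mutants by an amount that also depended on the probe set. The brightest mouse probe set had 20054.6 in saline mutants and 22409.2 in WT, 1.12-fold lower, and its sign turned (0.10) when arrays were centred. All 6 measured mouse probe sets were lower in the mutant as deposited, the others by 1.21-fold to 2.42-fold. The probe set furthest below WT had 508.0 against 1231.4. In rats one probe set had 6820.1 in saline mutants and 7371.3 in WT (1.08-fold lower) and the other 218.6 against 459.5 (2.10-fold lower). The fold of Klf9 is therefore uncertain in both species.

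Clock genes differed beside these factors, and Klf9, Klf10 and Klf15 are known clock-controlled genes in mice. In saline mutant mice 9 of 16 clock genes were called higher than in WT and 3 lower, and their median log2 ratio was 1.06. Over all mouse genes 4.46% were called higher and 3.71% lower. Dbp, the PAR-bZIP output factor, had 6612.5 against 268.2 in mice, 24.7-fold higher. In rats 1 of 16 was called higher and 0 lower, namely Dbp with 1087.4 in saline mutants and 543.5 in WT. Over all rat genes 2.99% were called higher and 1.45% lower. After quantile normalization 0 rat clock genes were called, and 2 with centred arrays. The hours of injection and collection on the clock are not given in the labels. Their part in the values of the Krüppel-like factors was not tested.

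Phlda1, a pleckstrin homology-like protein linked to cell death and to growth factor signalling, was the member furthest below WT in mice. Its 1 probe set had 1900.6 in leptin-injected mutants, 4790.3 in saline mutants and 11128.5 in WT. The saline mutant was 2.32-fold lower than WT, but its log2 ratio was -0.96, under 2-fold, when arrays were centred on their median. In rats Phlda1 had 7.7, 8.0 and 4.3 in the same groups, all under the floor, so it gave no ratio there. Its relatives Phlda2 and Phlda3 gave no call: 1 was measured in mice and both in rats, and 0 reached 2-fold.

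The leptin comparison sets mutant animals given leptin against mutant animals given saline. The rule for the genes does not use it, although results of it were known when they were proposed. Gadd45a and Gadd45g were lower after leptin in both species, by less than 2-fold. Phlda1 was 2.52-fold lower in mice, the only member called. In mice 0 of 10 members were called higher and 1 was called lower, against 0.182% and 0.243% of 11536 genes. In rats 0 of 9 were called in either direction, against 0.237% higher and 0.278% lower of 9705 genes. Among all genes called in rats 46.0% were higher, and 59.2% when arrays were centred. These ratios and the saline genotype ratios share the saline mutant array, so a deviation of that array alone would enter both with opposite sign.

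Gadd45a had 649.2 in leptin-injected and 933.3 in saline-injected Lepob/Lepob mice, 1.44-fold lower and at percentile 3.1 of all log2 ratios. In rats it had 2051.7 with leptin and 3220.1 with saline, 1.57-fold lower and at percentile 1.9. Gadd45g was 1.74-fold lower in mice, with 756.1 against 1313.8, at percentile 0.7. In rats Gadd45g had 1020.5 with leptin and 1470.9 with saline, 1.44-fold lower and at percentile 3.4. Gadd45b went the other way, with 235.6 against 181.8 in mice (1.30-fold higher, percentile 93.5) and 694.1 against 481.2 in rats (1.44-fold higher, percentile 97.1). The second mouse probe set of Gadd45b was 1.31-fold higher and the third stayed under the floor on both arrays. With 1 array per group, these ratios could not be set against the spread between animals.

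Tnfaip3 and Klf6 gave different values between mouse and rat mutants after leptin. Tnfaip3 had 374.8 in leptin-injected and 366.3 in saline-injected mice, 1.02-fold higher. In rats it had 797.2 against 1496.6, 1.88-fold lower and at percentile 0.5. Klf6 had 541.7 with leptin and 538.6 with saline in mice, 1.01-fold higher, and the other 3 measured mouse probe sets were 1.02-fold to 1.30-fold lower. In rats its 3 probe sets were 1.27-fold (790.6 against 1001.2), 1.51-fold and at least 1.93-fold lower. The difference between the species was not tested, since each ratio comes from 2 arrays.

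Of the remaining members, Klf10 was 1.56-fold lower after leptin in mice (483.9 against 757.3, percentile 1.6) and 1.06-fold lower in rats. Klf9 was 1.01-fold lower in mice and 1.47-fold lower in rats, where it had 4655.0 with leptin and 6820.1 with saline (percentile 3.1). The second rat probe set of Klf9 was 1.71-fold lower. Klf15 and Nfkbia stayed close to their saline values. Klf15 was 1.06-fold higher in mice and 1.14-fold lower in rats, and Nfkbia 1.18-fold higher in mice and 1.04-fold lower in rats. All 5 mouse probe sets of Nfkbia were higher with leptin, by 1.13-fold to 1.18-fold.

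In mice 5 of 10 members had a log2 ratio below 0, as had 50.5% of all genes, and the median lay between Klf9 at -0.01 and Klf6 at 0.01. In rats 8 of 9 were below 0, as were 47.9% of all genes, with a member median of -0.34 beside 0.011 over all genes. With arrays centred on their median the counts below 0 were 7 of 10 in mice and 7 of 9 in rats. The mouse and rat arrays are separate, but each saline mutant array served both the choice of genes and this comparison. Genes chosen for high values there would tend to read lower here in both species, so the shares below are only a description. Of 9 members measured in both, 4 (44.4%) were lower in both, namely Gadd45a, Gadd45g, Klf9 and Klf10, against 26.1% of 8214 genes. The mouse ratio of Klf9 was close to 0, and with centred arrays those of Klf6 (-0.03) and Tnfaip3 (-0.01) were below it. Gadd45b was the 1 member higher in both.

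**Figure D3:**
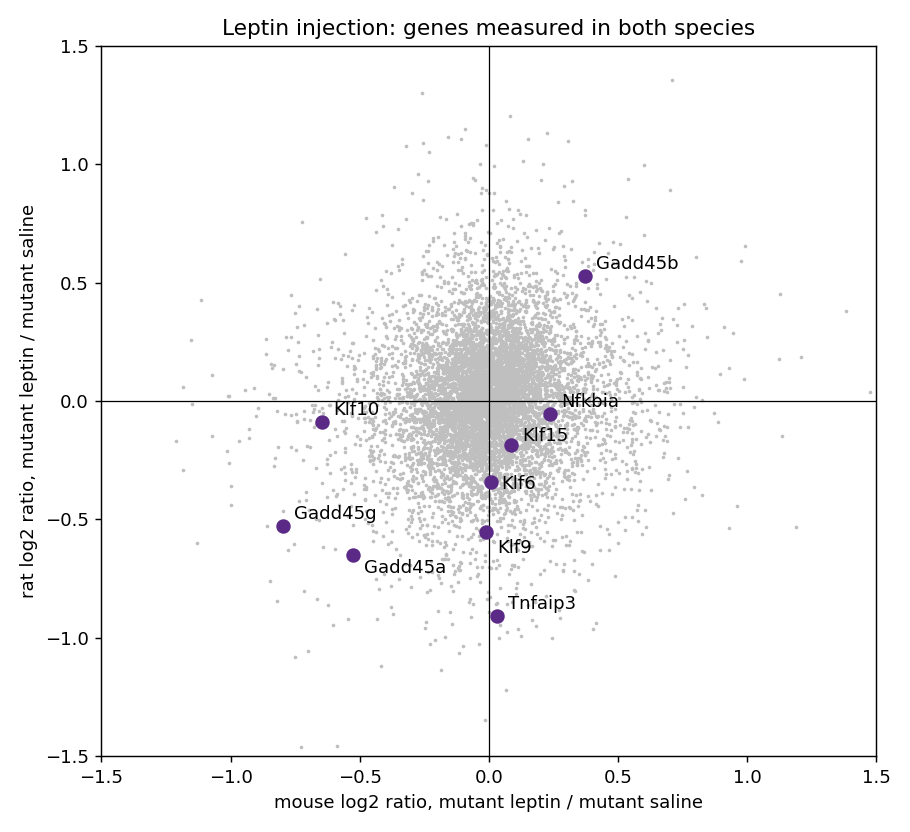
Log2 ratio of leptin-injected over saline-injected mutant intensity in mice (x axis) and rats (y axis). Grey points are the 8214 genes measured in both species, 9 of which lie outside the axes, and purple points the 9 members measured in both. Gadd45a and Gadd45g lie in the lower left, Gadd45b in the upper right, and Tnfaip3 at 0.03 in mice and -0.91 in rats.

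Several members also differed between leptin-injected mutants and WT. In mice 4 of 10 members were called higher and 1 lower, against 3.98% and 3.46% of 11958 genes. Of all calls in mice 53.5% were higher, and 76.5% when arrays were centred. Tnfaip3 was at least 4.53-fold higher than WT, Gadd45a 3.56-fold, Klf6 3.30-fold and Gadd45b at least 2.85-fold. Gadd45g was 1.57-fold and Klf10 1.07-fold higher than WT, and Phlda1 5.86-fold lower. In rats 2 of 9 members were called higher and 0 lower, against 2.83% and 1.61% of 9742 genes. They were Klf6 at 2.39-fold (log2 0.93, under 2-fold, as the median over probe sets) and Gadd45a at 2.02-fold, and Gadd45a fell short of 2-fold after quantile normalization. Tnfaip3 was 1.91-fold higher and Gadd45b 1.88-fold lower than WT in leptin-injected rats. Both sets of ratios against WT share the 1 WT array of a species.

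The genes nearest in pattern were sought for Gadd45a, Klf6 and Tnfaip3 over 4 log2 ratios, saline and leptin mutants against WT in both species. Among 1077 genes with at least 1 ratio of 2-fold, the gene nearest to Gadd45a was Tnfaip3, at a Euclidean distance of 0.45, followed by Acot9 (0.54) and Gstm3 (0.56). The nearest to Tnfaip3 was Gadd45a, then Rtn4 (0.61) and Acot9 (0.69). The nearest to Klf6 were Rtn4 (0.19), Acot9 (0.28) and Inhbe (0.34). Rtn4, for example, had log2 ratios of 1.87 and 1.67 in saline mutant mice and rats. The saline ratios among the 4 chose these 3 genes, all 4 rest on 1 WT array per species, and both mouse ratios of Tnfaip3 are bounds. The likeness of Gadd45a and Tnfaip3 was therefore largely set by the choice, and the distances only describe these arrays.

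The other Krüppel-like factor genes were counted in the same way, and with so few genes nothing is read from the calls. In saline mutants 0 of 9 measured in mice reached 2-fold in either direction, with Klf3 1.89-fold and Klf16 1.86-fold higher, and 2 were 2-fold higher when arrays were centred. In rats 1 of 7 was lower, Klf12 with 603.5 against 1215.6 (2.01-fold, under 2-fold when centred). Shares over all genes were 4.46% higher and 3.71% lower in mice, and 2.99% and 1.45% in rats. The median log2 ratio of the list in saline mutants was 0.39 in mice and 0.29 in rats, beside -0.027 and 0.044 over all genes. After leptin 0 were called in either species. Ratios below 0 were found for 7 of 10 in mice and 7 of 7 in rats, against 50.5% and 47.9% of all genes. The medians of this list after leptin were -0.25 in mice and -0.29 in rats. In rats Klf11 and Klf13 were each 1.51-fold lower with leptin. When arrays were centred, 6 of the 7 rat genes were below 0.

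Of the NF-kappaB subunits, regulators and targets other than Tnfaip3 and Nfkbia, some were called in each species. At such counts no difference between the species can be read from which genes were called. In saline mutant mice 2 of 26 were called higher and 1 lower (median log2 ratio 0.032), against 4.46% and 3.71% of all genes. In the same mice 11 of 26 were below 0, beside 52.5% of all genes. The adhesion molecule Vcam1 had 850.0 against 377.4 (2.25-fold higher) and the apoptosis inhibitor Birc3 825.5 against 404.2 (2.04-fold higher). Their other measured probe sets were under 2-fold, with log2 ratios of 0.61 and 0.54 for Vcam1 and 0.3 for Birc3. Tnip2, a partner of A20, had 110.6 against 231.6, 2.09-fold lower but under 2-fold after either other scaling. In saline mutant rats 3 of 24 were called higher and 0 lower (median 0.39), against 2.99% and 1.45% of all genes. In the same rats 4 of 24 were below 0, beside 44.7% of all genes. Those called were the chemokines Cxcl1 (2077.6 against 367.7, 5.65-fold) and Ccl2 (316.2 against 63.8, at least 3.26-fold) and the subunit Relb (at least 2.15-fold). After leptin 0 were called in either species. In rats Ccl2 was 1.85-fold lower, with 171.0 against 316.2.

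Genes that p53 induces include Cdkn1a, the p21 cell cycle inhibitor that GADD45 proteins bind. In saline mutant mice 3 of 17 were called higher and 0 lower (median 0.49), against 4.46% and 3.71% of all genes. When arrays were centred, 6 were called higher. Cdkn1a had 891.4 against 183.3 in mice (4.86-fold higher), and another probe set gave a log2 ratio of 1.27. Btg2 was 2.28-fold and Trp53inp1 2.12-fold higher, with a second Btg2 probe set at a log2 ratio of 0.49. In rats 1 of 14 was called higher and 0 lower, against 2.99% and 1.45% of all genes, and the median was 0.052. The gene called was Perp, with 5293.8 against 2642.6, and a second Perp probe set gave a log2 ratio of 0.88. Rat Cdkn1a had 930.8 in saline mutants and 804.1 in WT, 1.16-fold higher. After leptin 0 were called in either species. Ratios below 0 were found for 10 of 18 in mice and 11 of 14 in rats, against 50.5% and 47.9% of all genes. Cdkn1a had 501.8 with leptin and 930.8 with saline in rats, 1.85-fold lower, and was 1.11-fold lower in mice. The other mouse probe set of Cdkn1a had 313.5 with leptin and 584.6 with saline, so the mouse fold depends on the probe set. Btg2 was 1.76-fold lower in mice on its brightest probe set, while the second had 569.6 with leptin and 557.5 with saline.

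Of the kinases and cell cycle partners of GADD45 proteins, 1 of 12 was called higher and 0 lower in saline mutant mice (median 0.19). In saline mutant rats 2 of 10 were called higher and 1 lower (median 0.33). Over all genes 4.46% were called higher and 3.71% lower in mice, and 2.99% and 1.45% in rats. Map2k6, an activator of p38, was the gene called in both species. It had 173.9 against 44.7 in mice (at least 2.10-fold higher) and 359.4 against 166.9 in rats (2.15-fold higher). After leptin 1 of 12 genes was called lower in mice and 1 of 10 in rats, and 0 were called higher. Over all genes 0.243% in mice and 0.278% in rats were called lower. Map2k6 was the gene called in mice, at least 2.10-fold lower with 77.5 against 173.9, and it was 1.11-fold lower in rats. In rats the mitotic kinase Cdk1 had 274.1 in saline mutants and 70.7 in WT (at least 2.83-fold higher), and 117.5 with leptin, 2.33-fold lower than with saline. Mapk12 was at least 2.56-fold lower in saline mutant rats than in WT. Map2k6 in mice and Cdk1 in rats were named for high values on the saline mutant array. That array is also the reference of the leptin ratios, so lower values after leptin are partly built in.

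Glucocorticoid-induced genes, which share that regulation with Klf9 and Nfkbia, were called in both directions in rats. In saline mutant mice 7 of 19 were called higher and 0 lower (median 0.41), against 4.46% and 3.71% of all genes. The transcription factor Cebpd was 2.89-fold higher (872.2 against 301.5), with a second probe set at a log2 ratio of -0.06. The metallothionein Mt1 was 16.0-fold higher, with a second probe set at a log2 ratio of at least 2.39. In rats 3 of 18 were called higher and 3 lower (median 0.005), against 2.99% and 1.45% of all genes. Tat, the tyrosine aminotransferase, had 849.7 against 5897.2 (6.94-fold lower) and the serine dehydratase Sds 743.6 against 5526.5 (7.43-fold lower). Fgf21, also a fasting and stress hormone, was higher in both, 5.81-fold in mice and 3.05-fold in rats. After leptin 0 of 18 were called in rats. Against 0.243% of all genes, 2 of 19 were called lower in mice. They were the MAP kinase phosphatase Dusp1, with 1478.1 against 3419.2 (2.31-fold lower), and the transcription factor Zbtb16 (2.38-fold lower).

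TGF-beta pathway genes, read beside Klf10 and Klf6, had 3 of 14 called higher and 0 lower in saline mutant mice. In saline mutant rats 2 of 11 were called higher and 0 lower. Shares over all genes were 4.46% higher and 3.71% lower in mice, and 2.99% and 1.45% in rats. The matricellular protein Ccn2 was called in both species, with 994.8 against 451.8 in mice (2.20-fold) and 2218.8 against 469.1 in rats (4.73-fold). Tgfbr2, a receptor subunit, was 2.02-fold higher in mice and Skil, a feedback repressor, 2.11-fold higher in rats. Id1, a repressor of differentiation factors, had 643.3 in leptin-injected mutant mice, 1295.8 in saline mutants and 635.7 in WT. The list medians were -0.089 in mice and -0.072 in rats, and the mouse median turned to 0.17 when arrays were centred.

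Klf6 and Tnfaip3 are also expressed by stellate, endothelial and immune cells, whose markers differed between the genotypes. In a bulk sample, more cells of a type and more RNA per cell cannot be told apart. Stellate cell and fibroblast markers summed to an intensity of 9980.8 in saline mutant rats and 3618.8 in WT rats, 2.76-fold higher, with 4 of 9 called higher and 0 lower. In mice they summed to 22985.3 in saline mutants and 14555.1 in WT, 1.58-fold higher, with 0 of 10 called as deposited and 3 called higher when arrays were centred. Endothelial markers were 1.29-fold higher in sum in both species, with 2 of 10 called higher in mice and 1 of 8 in rats. Macrophage markers were 1.40-fold higher in sum in mice, with 2 of 12 called higher and 1 lower. In rats they were 1.13-fold higher in sum, with 0 of 10 called. Over all genes 4.46% were called higher and 3.71% lower in mice, and 2.99% and 1.45% in rats. Of the lymphocyte markers, 7 of 10 in mice and 7 of 9 in rats were under the floor on all arrays, Cd3d, Cd3e and Cd4 among them in each. Hepatocyte marker sums were 1.24-fold lower in saline mutant mice and 1.11-fold lower in saline mutant rats than in WT. The median log2 ratio of the mouse hepatocyte markers was -0.36 as deposited, -0.105 with centred arrays and 0.032 after quantile normalization, so its direction turned with the scaling. The part of these cells in the values of the 10 genes was not tested.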

How the data were processed

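Biotin-labelled, Trizol-extracted total RNA of liver was hybridised to 6 Affymetrix arrays, per the labels. The deposited values are linear intensity values per probe set, and MAS5 is the only tool listed in the submitters' processing notes, with no version. Trimmed means of the arrays, leaving out 2% at each end, were 496.0 to 496.9, and medians 77.0 to 99.3. Detection calls were not used here, so a floor stood in for them. Symbols came from the platform annotation, with 34945 of 45037 mouse probe sets and 20826 of 31042 rat probe sets carrying 1 symbol. For 34741 mouse probe sets the symbol was looked up by gene identifier in RefSeq (GRCm38.p6), and probe sets with several or no symbols were left out. Ratios were computed with Python 3.11.15 and pandas 2.3.3 and tested on simulated data. A gene entered a comparison if 1 of its 2 arrays reached the floor. The members and gene lists were chosen with earlier results of these data known. Named genes were all members, up to 4 called genes per list and species with the largest saline genotype ratios, the 3 genes nearest in pattern, and Lep. Other examples were named after their values were seen. With 1 array per group no test was possible, and the number of arrays limits precision. The 6 alternatives were quantile normalization, centred arrays, a floor at the lower quartile (25th percentile) or upper quartile (75th), a gene's median probe set ratio, and omission of probe sets whose suffix marks possible binding to more than 1 transcript.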

Additional observations from a re-analysis of the deposited data

Results flagged for a closer look

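Gadd45b is listed because its saline genotype ratio had opposite signs in mice and rats. These ratios belong to the comparison on which the genes were chosen and are a description. Its log2 ratio of saline mutant over WT was 1.14 in mice, a lower bound, and -1.44 in rats. The difference between the species was not tested, each side is 1 pair of arrays, and 1 of the 3 mouse probe sets was at least 2.02-fold lower, as in rats.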

How the results depend on the processing

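No paired analysis was possible because each group holds 1 array, and no replicate could be left out. Of 333 recomputed member ratios, 319 moved by no more than the probe set spread and 14 by more, and no ratio of 2-fold or more turned sign. In saline mutant against WT mice, 0 members were called lower with centred arrays and 2 called higher with the 75th percentile floor. For leptin mutants against WT, 0 members were called higher in mice with the 75th percentile floor. In rats 1 was called higher after quantile normalization, with the 75th percentile floor and as the median over probe sets, where 2 were called lower. Other member counts moved by no more than 1.5 times. Over all genes, higher and lower calls in saline mutant against WT mice were 962 and 235 with centred arrays, 984 and 1341 with the 25th and 267 and 198 with the 75th percentile floor. For leptin against saline mutant mice they were 408 and 436, and 5 and 4, with those floors. For leptin mutant against WT mice they were 767 and 235 with centred arrays, and 922 and 1318, and 231 and 182, with the floors. In rats the floors gave 694 and 453, and 112 and 74, for saline mutants against WT. They gave 211 and 296, and 8 and 5, for leptin against saline, and 631 and 520, and 113 and 73, for leptin mutants against WT. The floor sets how many genes are measured and bounds their ratios, so counts at different floors have different totals and cannot be compared as shares. The member counts under these settings are given without shares over all genes, and nothing is read from them. Gadd45g in mice, with 1 probe set of a kind that can bind several transcripts, gave no value without such probe sets. Tnfaip3 and Gadd45b in mice gave no value with the 75th percentile floor (385). The probe sets that stand for these genes did not reach that floor on any mouse array, so the counts with it leave them out.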

Other observations

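Other cell marker lists also differed between the arrays. Adipocyte markers summed to 4195.2 in saline mutant and 1434.9 in WT mice, 2.92-fold higher, with 2 of 5 over the floor in both groups. In rats they summed to 1471.2 in saline mutants, with 3 of 6 over the floor, and to 779.0 in WT, with 1 of 6. Adipoq and Lep were under the floor on all arrays of both species. Of the red blood cell markers, 1 of 3 was over the floor in mice, Alas2, which had 1142.4 in saline mutants and 2771.2 in WT (2.43-fold lower). In rats 3 of 3 were over the floor and summed to 19198.6 in saline mutants and 8639.4 in WT, 2.22-fold higher. Of 5 cholangiocyte markers, 0 were over the floor in saline mutant mice and 3 in WT mice, and 3 in saline mutant rats and 1 in WT rats, so no fold is given. Neutrophil markers summed to 2087.7 in leptin-injected mutant mice, 935.0 in saline mutants and 740.9 in WT, with 5, 4 and 6 of 9 over the floor. Their part in the values of the 10 genes was not tested.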
